A study of Mus musculus with 119 samples.

Results

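The IL-12 family of cytokines is built from 5 genes, Il12a, Il12b, Il23a, Il27 and Ebi3, and all 5 were read by symbol from the 18098 genes of the deposited normalised expression table. IL-12 family cytokines are secreted as pairs of an alpha chain and a beta chain. The p40 chain encoded by Il12b pairs with p35 from Il12a to make IL-12 and with p19 from Il23a to make IL-23, whereas p28 from Il27 pairs with EBI3 to make IL-27, and EBI3 with p35 makes IL-35. Activated macrophages and dendritic cells are a main source: IL-12 favours Th1 responses and IFN-gamma production, IL-23 sustains Th17 cells, and IL-27 both promotes and restrains T cell responses. Of the 5 genes, 4 passed the filter on low values and were tested, and Il12a did not pass it.

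RNA sequencing was performed on 25 groups of 3 to 6 libraries of bone marrow-derived macrophages (BMDMs) from C57BL/6(NIMR) mice, grown from marrow in L-cell conditioned medium. The series asks how TPL-2, the kinase encoded by Map3k8 that activates MKK1/2 and through them ERK1/2 after Toll-like receptor stimulation, shapes the macrophage response to LPS, which was given at 100 ng/ml. WT cells, replicates 4 to 9, were sampled without LPS and after 0.5, 1 and 2 h of LPS (n = 6 per time, but n = 4 at 2 h, replicates 4 to 7). Map3k8[D270A] cells, which carry a TPL-2 without kinase activity, had 6 libraries at each of these times. Elk1-/-Elk4-/- cells lack a pair of ternary complex factors, transcription factors that ERK1/2 phosphorylate, and had 4 libraries at each time. Nfkb1[SS/AA] cells, in which serines of the NF-kB1 precursor p105 targeted by IKK are replaced by alanine, had 6 libraries without LPS and at 0.5 and 1 h. PD0325901, an MKK1/2 inhibitor, was used on WT cells at 0.1 µM: 3 libraries each after 10, 40 and 70 min of the inhibitor alone, and 6 libraries each after 0.5 and 1 h of LPS. The DMSO group held 3 libraries after 10 min of vehicle, and there was no DMSO group with LPS. RSKi47, a ribosomal S6 kinase inhibitor used on WT cells at 2 µM, had 4, 3, 4 and 4 libraries at 0, 0.5, 1 and 2 h. The ages of the mice are not given. The paper's methods call the replicate libraries biological. Neither they nor the labels say that replicates were separate mice or cultures, so p-values measure the spread between these libraries.

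The labels tie the WT and Map3k8[D270A] libraries to 1 experiment. The Elk1-/-Elk4-/-, Nfkb1[SS/AA], PD0325901 and RSKi47 libraries have no untreated WT group of their own experiment, and for them genotype or inhibitor and experiment cannot be told apart. WT libraries 4 to 6 and 7 to 9 differed from each other, as did Map3k8[D270A] libraries 1 to 3 and 4 to 6. The shift between these sets of replicates had a correlation across 11884 genes, which are not independent replicates, of 0.57 in WT against Map3k8[D270A] at 1 h and of 0.58 at 2 h. The labels give no batch for them. Macrophage markers were high in every library (Adgre1 14.53 to 15.79, Csf1r 14.81 to 15.51 on the deposited log2 scale). Of 7 T and NK cell genes 6 had no value above 0.75, while Cd4 ran from 7.30 to 8.56. Of 8 dendritic cell genes Cd209a lay near 0 (-0.19 to 0.09), whereas Itgax ran from 9.72 to 12.46, Xcr1 from 2.93 to 5.01 and Zbtb46 from 2.68 to 5.33. The Elk1 value was 6.17 to 6.59 in the 16 Elk1-/-Elk4-/- libraries and 9.04 to 9.49 in the 22 WT libraries, and the Elk4 value was 5.51 to 5.88 against 7.57 to 8.49.

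The genes lie on 5 chromosomes of the mouse genome (RefSeq, GRCm38.p6): Il12a at chr3:68690644-68698550 on the plus strand, Il12b at chr11:44400063-44414677 on the plus strand, Il23a at chr10:128296140-128298084 on the minus strand, Il27 at chr7:126589009-126595035 on the minus strand and Ebi3 at chr17:55952623-55957022 on the plus strand. Il27 overlaps Apobr on the opposite strand, and Ebi3 overlaps Gm16712 on the opposite strand. The methods describe strand-specific reads, but none of the sources read says whether counting made use of the strand, and reads of such partners may not have been told apart. In WT cells the Apobr value stood 0.59 higher at 2 h of LPS than without LPS, against 5.93 for Il27. The Gm16712 value stood 3.18 higher at 2 h, against 1.74 for Ebi3.

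Promoter windows, 250 bases before to 50 bases after the annotated start, are shown for Il12b, the member that rose most with LPS, and for Ebi3, which was already well above the filter without LPS. The Il12b window is chr11:44399813-44400112 and the Ebi3 window chr17:55952373-55952672, both on the plus strand of GRCm38.p6 (RefSeq), and capitals mark motif matches.
Il12b: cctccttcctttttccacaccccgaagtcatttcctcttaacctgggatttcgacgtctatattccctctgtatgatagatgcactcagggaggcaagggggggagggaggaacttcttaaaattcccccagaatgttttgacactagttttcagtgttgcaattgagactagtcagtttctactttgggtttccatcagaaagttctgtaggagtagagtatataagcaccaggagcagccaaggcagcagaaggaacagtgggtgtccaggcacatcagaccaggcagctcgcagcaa
Ebi3: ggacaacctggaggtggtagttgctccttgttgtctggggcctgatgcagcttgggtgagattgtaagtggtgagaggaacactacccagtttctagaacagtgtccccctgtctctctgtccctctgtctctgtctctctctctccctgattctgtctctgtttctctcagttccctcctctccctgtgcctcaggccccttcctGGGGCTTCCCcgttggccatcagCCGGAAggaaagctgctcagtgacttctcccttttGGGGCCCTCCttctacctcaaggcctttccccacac

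Searched on both strands were the NF-kB (kB) consensus, AP-1 (TGANTCA), C/EBP (TTGCNNAA), an ISRE-like motif (GAAANNGAA), ETS (CCGGAA), the TATA box (TATAAA) and the CArG box. The Ebi3 window held the kB consensus at GGGGCTTCCC, whose first base lies at -44 from the start, and at GGGGCCCTCC, from base 15 after it, and the ETS motif CCGGAA at -21. Of 32851 promoter windows of the same length, 8.46% held the kB consensus and 14.9% the ETS motif. The Il12b window and both Il12a windows held none of the 7 motifs. Only exact matches to the patterns were counted, so a window without a match may still hold a variant site. The other 5 motifs were present in 7.81% (AP-1), 10.8% (C/EBP), 8.56% (ISRE-like), 13.6% (TATA box) and 1.63% (CArG box) of windows.

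In WT BMDMs the members differed in the time and size of their response to LPS. Differences are given on the deposited log2 scale. The paper's legends speak of log2 values, but neither it nor the labels say how the deposited table was transformed. The values were treated as log2, and a difference of 1 need not be an exact doubling of counts. After 0.5 h, 1 of the 4 tested members was called at an adjusted p below 0.05 (limma with Benjamini-Hochberg adjustment), against 11.6% of all genes tested, and 0 of 4 with a difference of at least 1 as well, against 0.623% of all genes; at an unadjusted p under 0.05 the first count was also 1. After 1 h all 4 were called, against 46.8% of genes, and 3 of 4 with a difference of at least 1, against 4.14%. After 2 h all 4 were called with a difference of at least 1, against 71.5% of genes called and 11% called with such a difference. In bulk RNA, fewer expressing cells and less RNA per cell cannot be told apart.

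Il12b encodes p40, shared by IL-12 and IL-23. Without LPS its 6 WT values ran from 5.04 to 5.21 (median 5.17), and after 0.5 h from 5.10 to 5.90 (median 5.46). At 1 h the WT values for replicates 4 to 9 were 10.97, 10.80, 10.88, 9.10, 8.78 and 8.85. At 2 h replicates 4 to 7 gave 13.44, 13.25, 12.83 and 12.61. Every library at 1 h lay above every unstimulated one and every library at 2 h above every one at 1 h, and at 1 h replicates 4 to 6 stood apart from and above 7 to 9. The difference from no LPS was 0.32 at 0.5 h (SE 0.25, adjusted p = 0.503), 4.74 at 1 h (SE 0.25, adjusted p = 2.46e-23) and 7.88 at 2 h (SE 0.28, adjusted p = 2.10e-31). Without LPS the Il12b and Il23a values moved together. In the 6 Nfkb1[SS/AA] libraries their SDs were 0.05 and 0.04, but the SD of their difference was 0.005. Whether such values measure expression or lie at a lower limit of each gene was not tested. The sizes of the rises from no LPS depend on them for both genes.

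Il23a encodes p19, the chain particular to IL-23. Its WT values were 3.16 to 3.46 without LPS (median 3.33) and 3.34 to 4.43 at 0.5 h (median 4.06). The limit on values without LPS given for Il12b applies here too. At 1 h replicates 4 to 9 gave 8.61, 8.61, 9.11, 7.43, 7.01 and 7.40, and at 2 h replicates 4 to 7 gave 6.11, 6.13, 6.20 and 6.19. All 6 values at 1 h lay above all 4 at 2 h, which in turn lay above all those at 0.5 h, so that Il23a alone of the 4 tested members stood lower at 2 h than at 1 h. The difference from no LPS was 0.64 at 0.5 h (SE 0.20, adjusted p = 0.0310), 4.70 at 1 h (SE 0.20, adjusted p = 2.64e-27) and 2.83 at 2 h (SE 0.23, adjusted p = 2.14e-16). The Il23a difference at 0.5 h was 0.24 in replicates 4 to 6 alone (adjusted p = 0.274) and 1.03 in 7 to 9 alone (adjusted p = 0.000147), and the call was lost without WT replicate 7, 8 or 9 (adjusted p up to 0.153) and with no filter on low values (adjusted p = 0.0503). Between 1 and 2 h the Il23a value fell by 1.87 (adjusted p = 2.88e-10), while over the same hour the Il12b value rose by 3.14.

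Il12a encodes p35, the alpha chain of IL-12. No library reached the filter at a linear value of 10 (3.32 on the log2 scale), so Il12a was tested only in an added fit of all 18098 genes. WT values ran from 1.04 to 1.08 without LPS, were 1.21, 1.31, 1.23, 1.08, 1.11 and 1.12 at 1 h, and were 2.20, 2.17, 2.20 and 1.85 at 2 h. The 4 libraries at 2 h lay above all others of WT cells. The difference was 0.11 at 1 h (adjusted p = 0.108) and 1.04 at 2 h (SE 0.06, adjusted p = 1.08e-21), near the lower end of the scale.

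Il27 encodes p28, the alpha chain of IL-27. Its WT values were 4.91 to 5.26 without LPS (median 5.09) and 5.31 to 5.67 at 0.5 h (median 5.45). At 1 h replicates 4 to 9 gave 7.91, 7.50, 7.61, 6.61, 6.90 and 6.69, and at 2 h replicates 4 to 7 gave 11.22, 11.15, 11.27 and 10.46. The groups at 0.5, 1 and 2 h did not overlap the unstimulated group, nor did those at 1 and 2 h overlap each other. The difference from no LPS was 0.37 at 0.5 h, which was not called in the fit of all groups (adjusted p = 0.378) but was called in replicates 4 to 6 alone (0.38, adjusted p = 0.0196), 2.11 at 1 h (SE 0.24, adjusted p = 6.96e-11) and 5.93 at 2 h (SE 0.27, adjusted p = 8.68e-27), with a rise of 3.82 between 1 and 2 h.

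Ebi3 encodes the beta chain of IL-27. Its WT values were 9.58 to 9.99 without LPS (median 9.83), 9.69 to 10.06 at 0.5 h (median 9.85), 10.20 to 10.64 at 1 h (median 10.58) and 11.47 to 11.63 at 2 h (median 11.59). The groups at 1 and 2 h lay above the unstimulated group without overlap, and the 0.5 h group overlapped it. The difference was 0.04 at 0.5 h (adjusted p = 0.882), 0.68 at 1 h (SE 0.09, adjusted p = 6.50e-09) and 1.74 at 2 h (SE 0.10, adjusted p = 8.10e-22), the smallest of the 4 tested members at both later times.

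**Figure D1:**
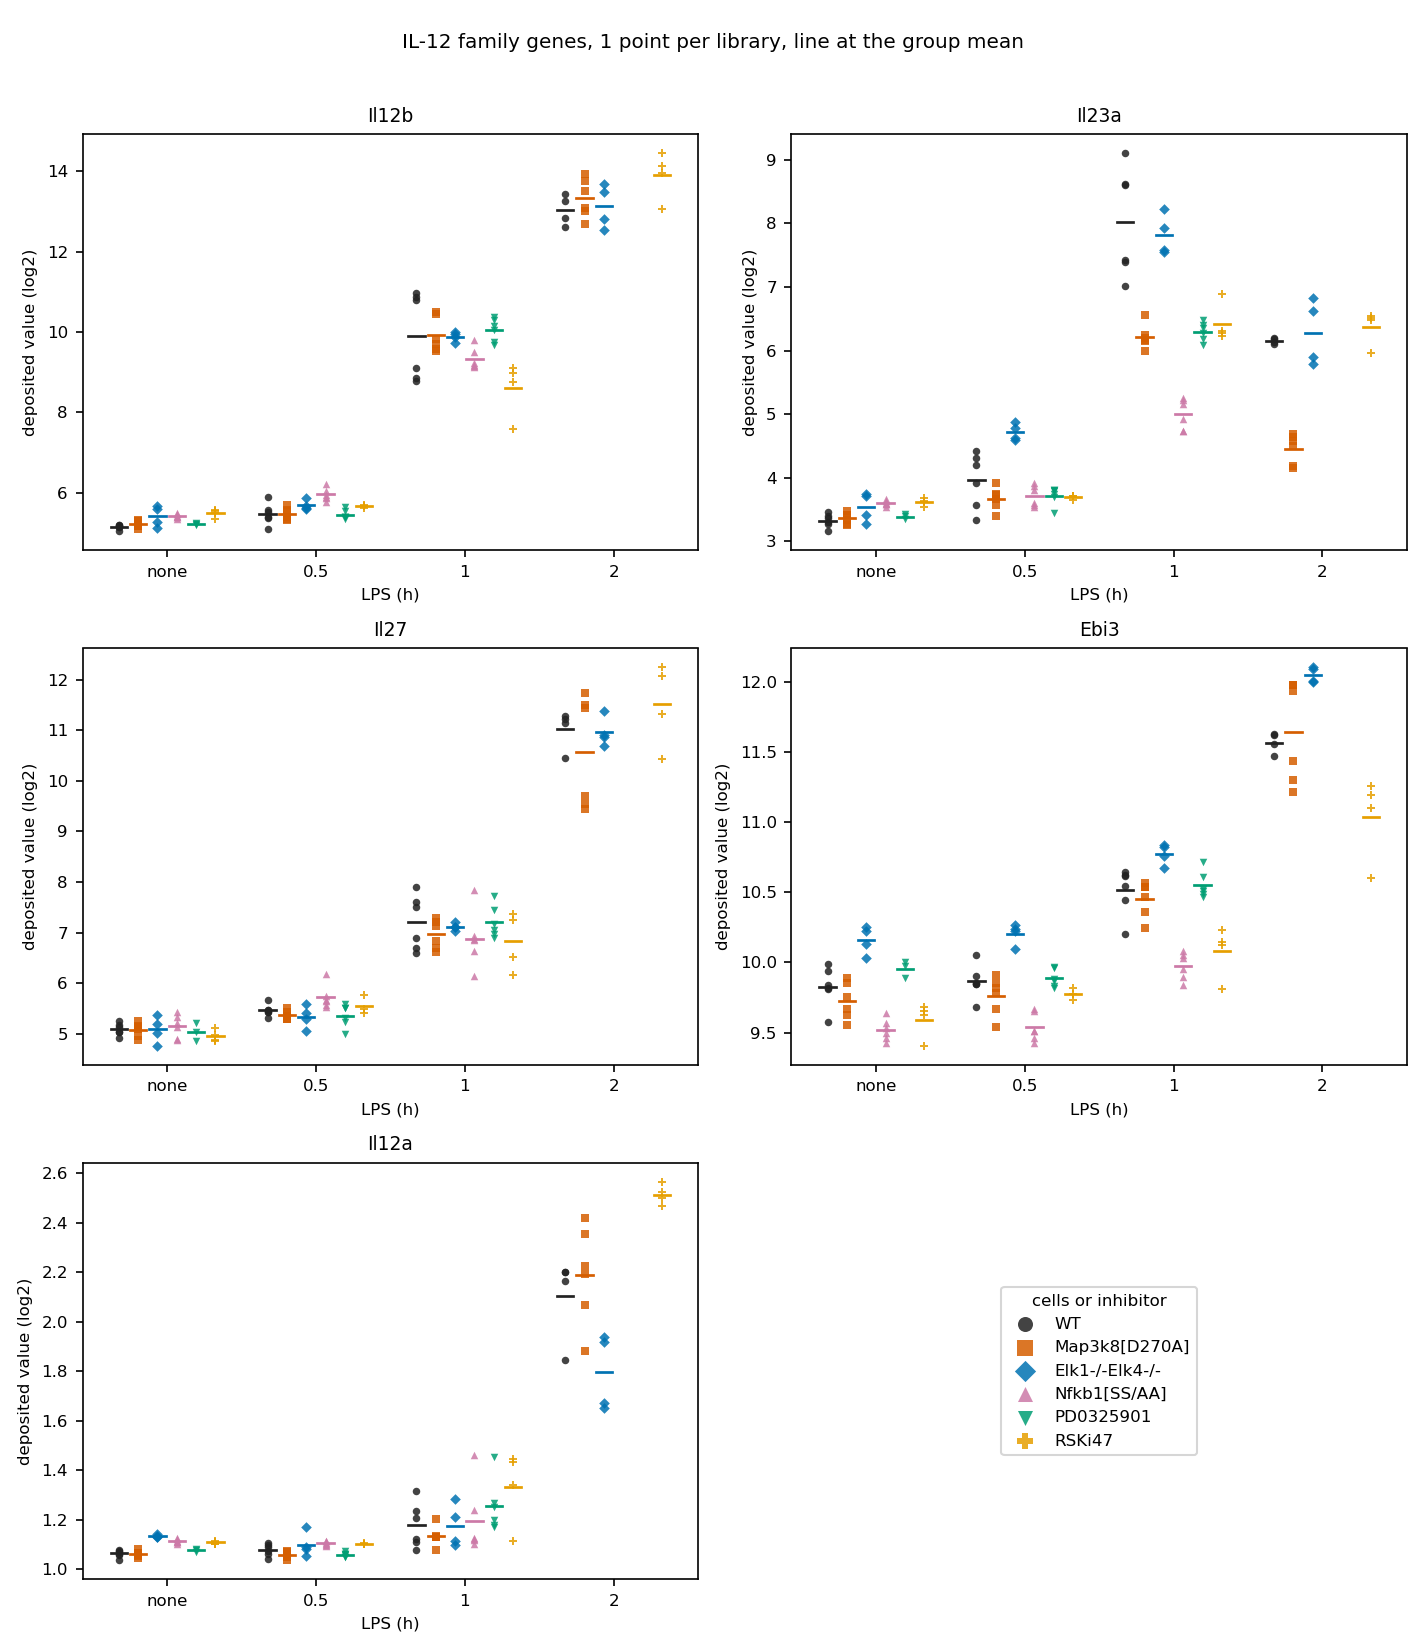
Deposited log2 value of each IL-12 family gene (5 panels) in every library against LPS time in h, coloured by genotype or inhibitor; each point is 1 library and horizontal lines mark group means, with PD0325901 without LPS shown at its 10 min group. Il12b, Il27 and Ebi3 climb to 2 h, whereas Il23a peaks at 1 h in WT cells, at 7.01 to 9.11, and stands at 6.11 to 6.20 at 2 h.

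Across the 25 group means, which share libraries and scaling, Il12b and Il27 had a Pearson correlation of 0.97, Il27 and Ebi3 of 0.92 and Il12b and Ebi3 of 0.90. Il23a was less like the others, at 0.76 with Il12b, and 0.63 with both Il27 and Ebi3. The genes outside the family whose 25 group means were most like those of Il23a were Lif (0.97), Cdc42ep4 (0.96) and Arl5b (0.93), and those most like Il27 were Tnfsf15, Lztfl1 and Nfkb1 (each 0.99). Il12b was most like 1700047I17Rik2 and Fam177a, which have identical values in the table, and Ncf1 (each 0.99). Ebi3 was most like Lcp1, Taf15 and Swap70 (each 0.98). These are descriptions of likeness over groups with no test.

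The comparison of Map3k8[D270A] with WT cells asks which members depend on TPL-2 kinase activity. Without LPS 0 of 4 tested members were called by limma, against 1.44% of genes, and at 0.5 h 0 of 4, against 1.37%; at an unadjusted p under 0.05 the counts were also 0. At 1 h 1 of 4 was called, against 9.79%, and at 2 h 1 of 4, against 27.7%. At both times the called gene was Il23a. At 0.5 h the Il23a difference was -0.29 (adjusted p = 0.631), with 0.04 in the first set of replicates (WT 4 to 6, Map3k8[D270A] 1 to 3) and -0.63 in the second (WT 7 to 9, Map3k8[D270A] 4 to 6; adjusted p = 0.00765), and the difference between the sets was not called (adjusted p = 0.154).

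Il23a values at 1 h ran from 5.99 to 6.56 in the 6 Map3k8[D270A] libraries (median 6.18), against 7.01 to 9.11 in WT (median 8.02). At 2 h they ran from 4.15 to 4.68 (median 4.54) against 6.11 to 6.20. Every Map3k8[D270A] library lay below every WT library at both times. Il23a was 1.81 lower than in WT at 1 h (difference -1.81, SE 0.20, adjusted p = 1.15e-09) and 1.70 lower at 2 h (difference -1.70, SE 0.23, adjusted p = 4.43e-08). The rise with LPS was itself smaller than in WT, by a difference of -1.85 at 1 h and -1.73 at 2 h, each called, yet Il23a still rose in Map3k8[D270A] cells, by 2.86 at 1 h (adjusted p = 7.21e-18) and at 2 h with a 95% interval of 0.69 to 1.51 (adjusted p = 4.53e-06). Within the sets the Il23a difference at 1 h was -2.46 for WT 4 to 6 against Map3k8[D270A] 1 to 3 and -1.16 for WT 7 to 9 against Map3k8[D270A] 4 to 6, which differed by -1.30 (adjusted p = 0.000396). At 2 h it was -1.57 and -1.85, the latter with a single WT library.

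Il12b in Map3k8[D270A] cells was 10.44, 9.81, 10.49, 9.57, 9.70 and 9.53 at 1 h and 13.75, 13.52, 13.93, 12.68, 13.09 and 13.02 at 2 h. At both times these values overlapped WT. The Il12b difference was 0.03 at 1 h (95% interval -0.48 to 0.53, adjusted p = 0.971) and 0.30 at 2 h (95% interval -0.27 to 0.87, adjusted p = 0.477). The value near 0 at 1 h joined opposite differences within the sets, -0.64 in the first set (adjusted p = 0.00251) and 0.69 in the second (adjusted p = 0.00200), and these differed by -1.33 (adjusted p = 0.000375). The WT libraries moved more between the sets at 1 h than the mutant ones: WT replicates 4 to 6 stood 1.97 above 7 to 9. At 2 h the Il12b difference was 0.56 in the first set (adjusted p = 0.00267) and 0.32 in the second, where WT replicate 7 is the only WT library.

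Il27 in Map3k8[D270A] cells ran from 6.62 to 7.28 at 1 h (median 6.98), and replicates 1 to 6 gave 11.73, 11.45, 11.51, 9.71, 9.45 and 9.55 at 2 h. Replicates 1 to 3 stood above all 4 WT libraries at 2 h and replicates 4 to 6 below them. The Il27 difference was -0.24 at 1 h (adjusted p = 0.637) and -0.46 at 2 h (95% interval -1.003 to 0.08, adjusted p = 0.212). Within sets it was -0.62 and 0.14 at 1 h, which differed by -0.75 (adjusted p = 0.0230), and 0.35 (adjusted p = 0.0224) and -0.89 at 2 h. The last value rests on WT replicate 7, the single WT library of the second set, whose Il27 value of 10.46 stood apart from the other 3 WT libraries. Without Map3k8[D270A] replicate 1 the Il27 difference at 2 h was called, at -0.69 (adjusted p = 0.0451).

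Ebi3 in Map3k8[D270A] cells ran from 10.25 to 10.57 at 1 h, and replicates 1 to 6 gave 11.98, 11.93, 11.98, 11.30, 11.21 and 11.43 at 2 h. Both groups overlapped WT. The Ebi3 difference was -0.06 at 1 h (adjusted p = 0.777) and 0.07 at 2 h (95% interval -0.13 to 0.28, adjusted p = 0.659), with 0.36 in the first set (adjusted p = 0.00200) and -0.15 in the second, with its single WT library, at 2 h. Il12a, in the fit of all genes, gave 2.42, 2.22, 2.36, 2.19, 2.07 and 1.88 at 2 h, a difference of 0.09 (adjusted p = 0.401).

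**Figure D2:**
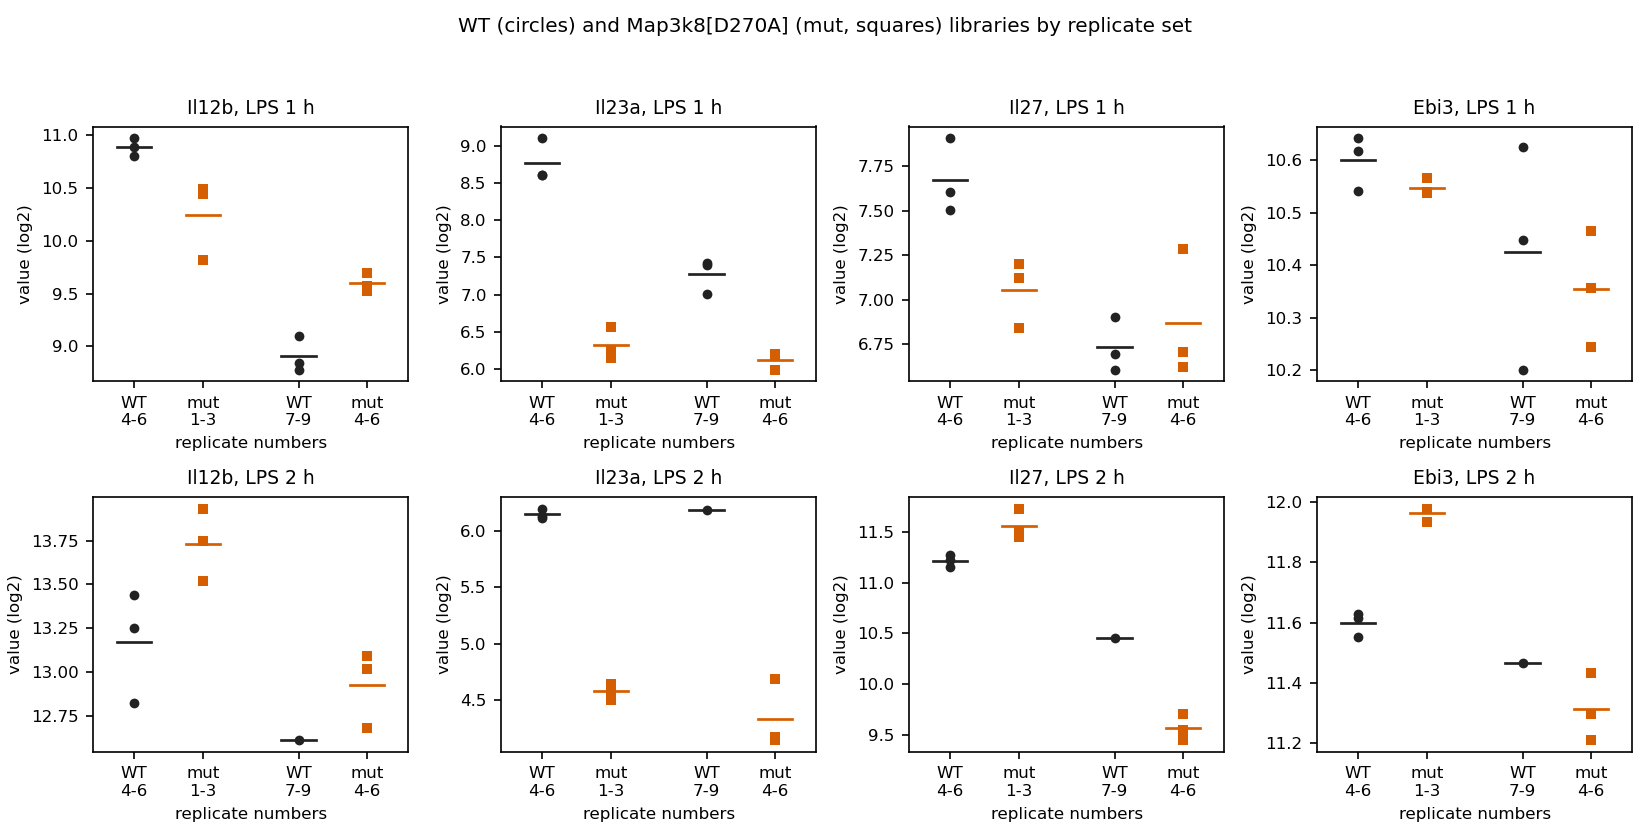
Deposited log2 values of Il12b, Il23a, Il27 and Ebi3 at 1 and 2 h of LPS in WT and Map3k8[D270A] libraries, split by replicate set (set 1, WT 4 to 6 and Map3k8[D270A] 1 to 3; set 2, WT 7 to 9 and Map3k8[D270A] 4 to 6); each point is 1 library and lines mark means. Il23a is lower in Map3k8[D270A] cells in both sets at both times, whereas Il12b at 1 h and Il27 at 2 h differ in opposite directions in the sets; at 2 h set 2 holds 1 WT library.

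Nfkb1[SS/AA] cells address the p105 arm upstream of TPL-2. Without LPS 1 of 4 tested members was called against WT, where 32% of genes were, and at 0.5 h 1 of 4, where 32.3% were; both times it was Ebi3, which was lower. At 1 h 3 of 4 were called, all lower, against 42.5% of genes. Il23a at 1 h ran from 4.73 to 5.26 in the 6 Nfkb1[SS/AA] libraries (median 5.04), below every WT library and below every Map3k8[D270A] library. The Il23a difference from WT was -3.02 (SE 0.16, adjusted p = 1.72e-30) and that from Map3k8[D270A] -1.21 (SE 0.16, adjusted p = 1.06e-09). Il23a still rose with LPS in these cells, by 1.40 (adjusted p = 1.62e-12), which was less than in WT by a difference of -3.30.

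Il12b at 1 h ran from 9.14 to 9.81 in Nfkb1[SS/AA] cells (median 9.19), within the WT range of 8.78 to 10.97. The Il12b difference of -0.57 (SE 0.22, adjusted p = 0.0277) turned to 0.42 (adjusted p = 0.0930) against WT replicates 7 to 9 alone, and the call was lost without WT replicate 4, 5 or 6 or without Nfkb1[SS/AA] replicate 2, 3, 4 or 5, with adjusted p up to 0.195. Il27 ran from 6.14 to 7.83 (median 6.86), a difference of -0.33 (adjusted p = 0.256). Ebi3 ran from 9.43 to 9.64 without LPS and from 9.84 to 10.08 at 1 h. It overlapped WT without LPS and lay below every WT library at 0.5 and 1 h. The Ebi3 difference was -0.31 (adjusted p = 0.00219), -0.33 (adjusted p = 0.00105) and -0.54 (adjusted p = 5.65e-08) at 0, 0.5 and 1 h, and its response to LPS was not called different from WT at 1 h (difference -0.23, adjusted p = 0.297).

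PD0325901 blocks MKK1/2, the kinases between TPL-2 and ERK1/2. At 0.5 h of LPS 0 of 4 tested members were called against WT by limma, where 29.4% of genes were, and at an unadjusted p under 0.05 the count was also 0. At 1 h 1 of 4 was called, Il23a, where 35.7% of genes were. Il23a ran from 6.09 to 6.48 in the 6 PD0325901 libraries (median 6.31), below every WT library. The Il23a difference was -1.73 (SE 0.16, adjusted p = 1.59e-15). PD0325901 and Map3k8[D270A] values overlapped at 1 h, with a difference of 0.08 (95% interval -0.25 to 0.40, adjusted p = 0.734), whereas Il23a stood 1.29 higher with PD0325901 than in Nfkb1[SS/AA] cells (adjusted p = 5.84e-10). The summed log2 level of 9 neutrophil genes at 1 h ran from 8.28 to 8.82 with PD0325901 and from 6.46 to 7.77 in WT libraries, without overlap, and its part in the Il23a difference was not tested.

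With PD0325901 at 1 h Il12b ran from 9.69 to 10.37 (median 10.10), Il27 from 6.90 to 7.72 (median 7.11) and Ebi3 from 10.46 to 10.72 (median 10.51). All of these overlapped WT. The Il12b difference was 0.15 (95% interval -0.28 to 0.58, adjusted p = 0.606), but it was -0.83 against WT replicates 4 to 6 alone and 1.14 against 7 to 9 alone. Il27 differed by 0.01 (95% interval -0.45 to 0.46) and Ebi3 by 0.04 (95% interval -0.13 to 0.20). No LPS group received DMSO, so the effect of vehicle at 1 h was not tested; without LPS 0 of 4 members were called by limma between PD0325901 and DMSO at 10 min, where 0% of 11971 genes were, with 0 members and 245 genes at an unadjusted p under 0.05. Between DMSO at 10 min and unstimulated WT cells 0 of 4 were called, where 23.6% of genes were, and the count at an unadjusted p under 0.05 was 0.

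Elk1-/-Elk4-/- cells lack targets of ERK1/2 in the nucleus. Of the 4 tested members 1 was called without LPS, against 51.8% of genes, 2 at 0.5 h, against 44.4%, 1 at 1 h, against 53.4%, and 1 at 2 h, against 50.8%. Il23a at 1 h was 7.54, 7.93, 8.23 and 7.58, within the WT range, and at 2 h 5.78, 6.63, 6.83 and 5.89, on both sides of WT. The Il23a difference was -0.21 at 1 h (95% interval -0.67 to 0.25, adjusted p = 0.459) and 0.13 at 2 h (95% interval -0.37 to 0.63, adjusted p = 0.694). At 0.5 h Il23a had a median of 4.70 and a highest value of 4.87, all 4 libraries lay above every WT library, and it had a difference of 0.76 (SE 0.23, adjusted p = 0.00601). That Il23a difference was 1.105 against WT replicates 4 to 6 alone and 0.41 against 7 to 9 alone, where the call was lost (adjusted p = 0.0721). Against Map3k8[D270A] cells Il23a stood 1.60 higher at 1 h and 1.83 higher at 2 h.

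Il12b in Elk1-/-Elk4-/- cells was 9.87, 9.95, 10.00 and 9.72 at 1 h and 12.80, 13.48, 13.68 and 12.54 at 2 h. Both groups overlapped WT, with differences of -0.01 (adjusted p = 0.968) and 0.09 (adjusted p = 0.821). At 1 h the difference for Il12b was -1.002 against WT replicates 4 to 6 and 0.97 against 7 to 9, and for Il23a -0.95 and 0.54, so that neither sign held for both sets of WT libraries. Il27 ran from 7.04 to 7.21 at 1 h and from 10.69 to 11.38 at 2 h, with differences of -0.08 (adjusted p = 0.810) and -0.06 (adjusted p = 0.871).

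Ebi3 was higher in Elk1-/-Elk4-/- cells at every time: 10.03 to 10.25 without LPS and 12.00 to 12.10 at 2 h, above every WT library at each of the 4 times. The Ebi3 difference was 0.33 (adjusted p = 0.00581), 0.34 (adjusted p = 0.00602), 0.26 (adjusted p = 0.0296) and 0.48 (adjusted p = 0.000324) at 0, 0.5, 1 and 2 h. The call at 1 h was lost against WT replicates 4 to 6 alone (0.17) and when WT replicate 7 or 9 or Elk1-/-Elk4-/- replicate 1, 2 or 3 was left out, with adjusted p up to 0.0920. In the fit of all genes Il12a was 1.67, 1.94, 1.92 and 1.65 at 2 h, with a difference of -0.31 (adjusted p = 0.000144); WT replicate 7, at 1.85, lay within the Elk1-/-Elk4-/- values and the other 3 WT libraries above them. Summed over 9 neutrophil genes, the log2 level ran from 10.05 to 11.05 in Elk1-/-Elk4-/- libraries and from 6.31 to 7.77 in WT libraries, and summed over 8 dendritic cell genes it was at most 10.22 in Elk1-/-Elk4-/- and at most 11.97 in WT libraries, without overlap. Itgax carried the dendritic cell sum, with a mean of 9.84 in Elk1-/-Elk4-/- and 11.33 in WT cells without LPS, and at 2 h the means of Zbtb46 (3.69 against 5.13) and Ccr7 (4.05 against 4.33) were also lower, while those of Siglech (2.28 against 1.18), Clec9a (2.72 against 2.20), Xcr1 (4.74 against 4.46) and Flt3 were higher. Summed over 4 B cell genes, the log2 level at 2 h ran from 6.66 to 6.87 in Elk1-/-Elk4-/- and from 5.83 to 6.33 in WT libraries, without overlap. Summed over 8 macrophage genes, the log2 level at 2 h ran from 18.64 to 18.71 in Elk1-/-Elk4-/- and from 18.87 to 19.00 in WT libraries, without overlap. Lyz2 carried that sum (mean 17.70 against 18.15). The means of Csf1r, Itgam and Cd14 were also lower, while those of Adgre1, Cd68, Fcgr1 and Mertk were higher. The part of these genes in the Ebi3, Il23a and Il12a differences was not tested.

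RSKi47 blocks ribosomal S6 kinases, which ERK1/2 activate. Against WT 1 of 4 tested members was called without LPS, where 53% of genes were, 0 of 4 at 0.5 h, where 48.2% were (also 0 at an unadjusted p under 0.05 in limma), 3 of 4 at 1 h, where 52.8% were, and 2 of 4 at 2 h, where 52.1% were. Il23a at 1 h was 6.27, 6.31, 6.22 and 6.88, below every WT library, and at 2 h it ran from 5.96 to 6.55, overlapping WT. The Il23a difference was -1.61 at 1 h (SE 0.18, adjusted p = 2.05e-12) and 0.22 at 2 h (95% interval -0.18 to 0.62, adjusted p = 0.369). With RSKi47 the Il23a value did not differ by the test between 1 and 2 h (-0.05, adjusted p = 0.868), whereas in WT it fell, and the change of the difference from 1 to 2 h was 1.83 (adjusted p = 1.38e-07). Compared with Map3k8[D270A] cells Il23a differed by 0.20 at 1 h (95% interval -0.16 to 0.57, adjusted p = 0.368) and stood 1.92 higher at 2 h.

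Il12b with RSKi47 was 7.59, 8.99, 9.10 and 8.75 at 1 h and 13.96, 14.14, 14.46 and 13.06 at 2 h. Replicate 1 was the lowest at 1 h and replicate 4 the lowest at 2 h, and both groups overlapped WT. The Il12b difference was -1.29 at 1 h (SE 0.24, adjusted p = 4.29e-06, but 0.0756 with only the groups compared in the fit) and 0.87 at 2 h (SE 0.27, adjusted p = 0.00386), a change of 2.16 from 1 to 2 h (adjusted p = 2.43e-06). Against WT replicates 7 to 9 alone the Il12b difference at 1 h was -0.30 (adjusted p = 0.259).

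Il27 with RSKi47 was 6.15, 7.26, 7.38 and 6.52 at 1 h and 11.32, 12.24, 12.08 and 10.43 at 2 h, overlapping WT at both times. The Il27 difference was -0.38 (adjusted p = 0.216) and 0.49 (adjusted p = 0.136), and without RSKi47 replicate 4 the latter was called, at 0.85 (adjusted p = 0.0104). Ebi3 ran from 9.41 to 9.69 without LPS and from 10.60 to 11.25 at 2 h. At 2 h all 4 libraries lay below WT, and without LPS and at 1 h the groups overlapped. The Ebi3 difference was -0.23 (adjusted p = 0.0257), -0.09 (adjusted p = 0.475), -0.43 (adjusted p = 3.87e-05) and -0.53 (adjusted p = 5.44e-06) at 0, 0.5, 1 and 2 h, and the first of these calls was lost against WT replicates 7 to 9 alone (-0.20, adjusted p = 0.143). Il12a ran from 2.47 to 2.57 at 2 h (median 2.51), above every WT library, with a difference of 0.41 (adjusted p = 1.07e-08) in the fit of all genes. The summed log2 level of the 8 dendritic cell genes ran from 12.00 to 12.48 in RSKi47 libraries, above WT. Itgax carried that sum (mean at 2 h 12.34 against 11.63 in WT), and at 2 h the means of Xcr1 (4.75 against 4.46), Clec9a (2.37 against 2.20), Siglech (1.26 against 1.18) and Flt3 were also higher, while those of Zbtb46 (4.61 against 5.13) and Ccr7 (4.19 against 4.33) were lower. The 4 B cell genes summed to 5.27 to 5.62 with RSKi47 at 2 h, below every WT library at 2 h. The 7 T and NK cell genes summed to 7.69 to 7.75 with RSKi47 and to 7.95 to 8.53 in WT at 2 h, without overlap. Cd4 carried that sum (mean 7.70 against 8.16). The summed log2 level of 5 fibroblast genes ran from 5.82 to 9.44 with RSKi47 and from 4.55 to 4.93 in WT libraries without LPS, and from 6.21 to 6.86 and 5.82 to 6.25 at 2 h. Without LPS Col1a1, a collagen gene of that list, ran from 3.93 to 9.03 with RSKi47 (SD 2.35, n = 4). In WT cells without LPS it ran from 2.25 to 2.78. At 2 h the means of Col1a1, Col1a2 and Col3a1 were higher with RSKi47 than in WT. Those of Pdgfrb (4.87 against 5.61) and Dcn were lower. The 9 neutrophil genes summed to 7.94 to 8.60 with RSKi47 and 6.47 to 7.76 in WT at 2 h. The part of these genes in the RSKi47 differences was not tested.

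**Figure D3:**
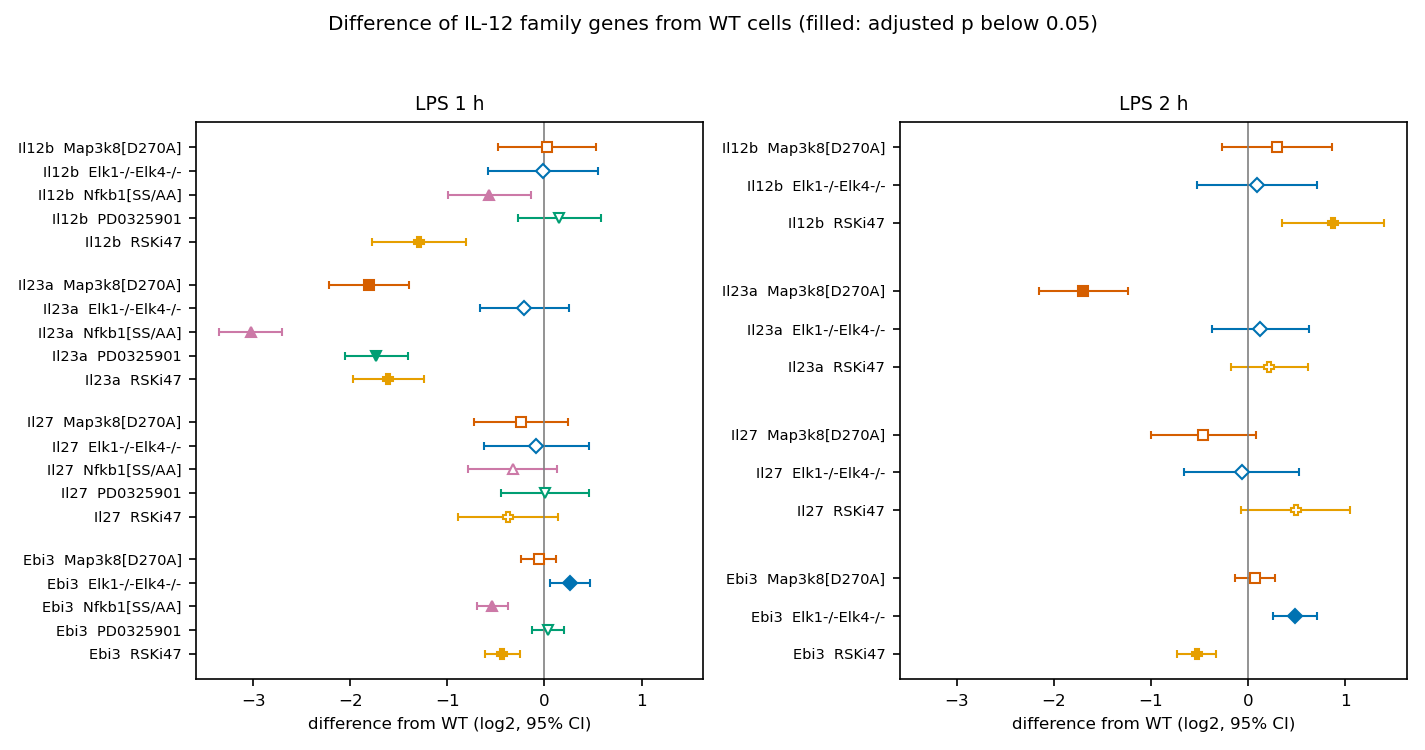
Difference from WT on the deposited log2 scale, with 95% intervals from limma, for Il12b, Il23a, Il27 and Ebi3 at 1 and 2 h of LPS in each genotype or inhibitor group; filled points have an adjusted p below 0.05. Il23a at 1 h lies at -1.81, -3.02, -1.73 and -1.61 in Map3k8[D270A], Nfkb1[SS/AA], PD0325901 and RSKi47 groups and at -0.21 in Elk1-/-Elk4-/- cells.

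The chains of IL-23 were also compared within libraries, as the Il12b value minus the Il23a value, a difference that depends on gene length and is read only between groups. At 1 h it ran from 1.45 to 2.36 in WT cells (mean 1.87 ± 0.34, SD, n = 6). It averaged 3.70 ± 0.35 (SD, n = 6) in Map3k8[D270A], 4.33 ± 0.42 (SD, n = 6) in Nfkb1[SS/AA] and 3.76 with PD0325901 (n = 6). In these 3 groups every library lay above every WT library. The exact permutation test, two-sided, gave p = 0.00216 for each, the smallest p that 6 against 6 libraries allow (adjusted p = 0.00577 over 8 comparisons).

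Il12b minus Il23a at 1 h was 2.06 in Elk1-/-Elk4-/- cells (exact permutation p = 0.371) and 2.19 ± 0.73 (SD, n = 4) with RSKi47 (exact permutation p = 0.352), both overlapping WT. At 2 h the mean was 8.87 ± 0.46 (SD, n = 6) in Map3k8[D270A], with every library above those of WT at 6.88 ± 0.42 (SD, n = 4) (exact permutation p = 0.00952, the smallest p that 6 against 4 allow, adjusted p = 0.0190). It was 6.84 in Elk1-/-Elk4-/- cells (exact permutation p = 0.857) and 7.53 with RSKi47 (exact permutation p = 0.143), both overlapping WT. With RSKi47 and in Nfkb1[SS/AA] cells at 1 h both Il12b and Il23a were called below WT by limma over all libraries. The Il12b call was lost in each when only the groups compared were in the fit. In Map3k8[D270A] and PD0325901 libraries only Il23a was called lower. Il12b was lower with RSKi47 than in Map3k8[D270A] cells at 1 h (limma, -1.32, adjusted p = 3.21e-06).

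**Figure D4:**
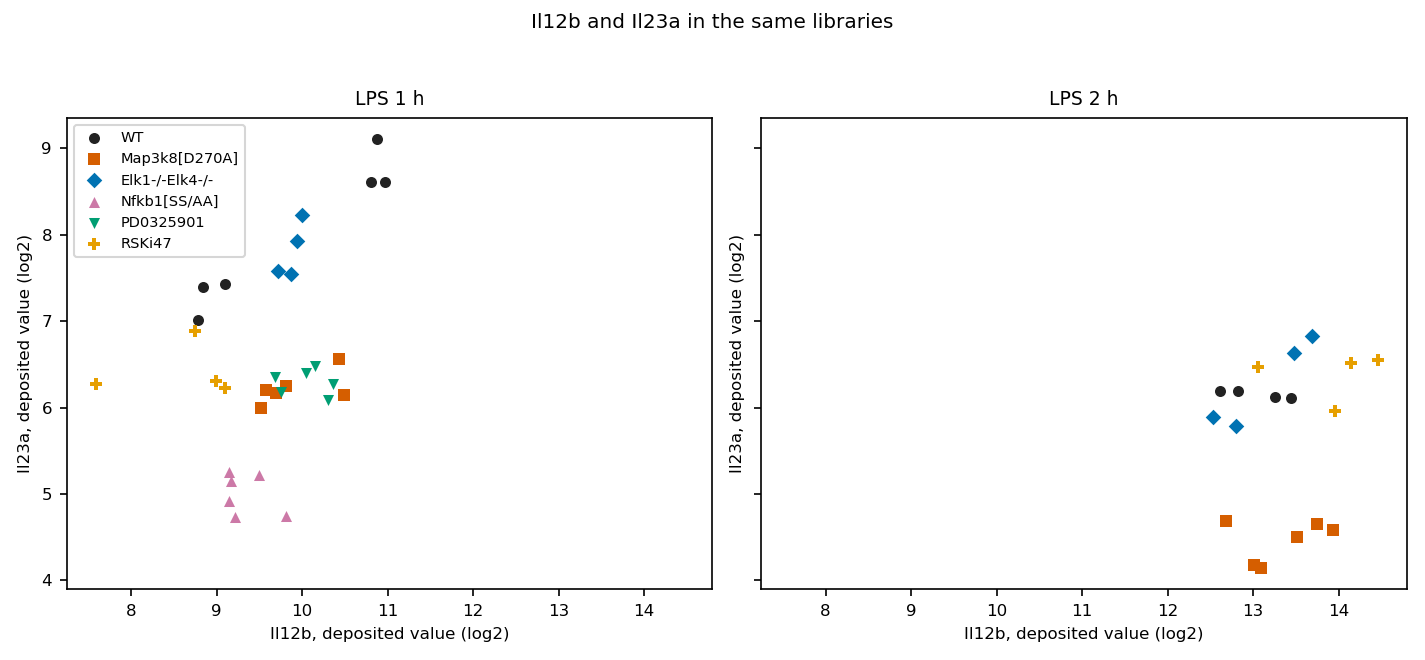
Deposited log2 value of Il23a against that of Il12b in every library at 1 h and at 2 h of LPS, coloured by genotype or inhibitor; each dot is 1 library. At 1 h the Map3k8[D270A] and PD0325901 libraries lie at an Il12b value within the WT range of 8.78 to 10.97 but below every WT library in Il23a.

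Ordered by group mean, Il23a was highest in WT at 1 h (8.03 ± 0.85, SD, n = 6) and in Elk1-/-Elk4-/- cells at 1 h (7.82 ± 0.32, SD, n = 4), which did not differ beyond their spread (a gap between means below the sum of their SDs), followed by RSKi47 at 1 h (6.42 ± 0.31, SD, n = 4). Il12b was highest in the 4 groups at 2 h, from 13.91 ± 0.60 with RSKi47 to 13.03 ± 0.38 in WT (SD, n = 4 each), with each group within the spread of its neighbour. Ebi3 was highest at 2 h in Elk1-/-Elk4-/- cells (12.05 ± 0.05, SD, n = 4), then Map3k8[D270A] (11.64 ± 0.36, SD, n = 6) and WT cells (11.57 ± 0.07, SD, n = 4). By the same rule Elk1-/-Elk4-/- did not differ from Map3k8[D270A] cells beyond their spread, nor did Map3k8[D270A] from WT cells. All Elk1-/-Elk4-/- libraries still lay above those of Map3k8[D270A] and WT cells.

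Of 5 receptor genes, 4 were tested. Over all libraries Il6st ran from 11.08 to 12.30, Il12rb2 from 7.94 to 9.22, Il27ra from 5.46 to 7.12 and Il12rb1 from 2.90 to 4.19, and Il23r, which encodes the chain particular to the IL-23 receptor, lay between -1.98 and -1.90 in all libraries, near the lower end of the scale. In WT cells at 2 h, where 71.5% of genes were called, 0 receptor genes rose and 1 fell, Il6st (-0.40), which encodes gp130. In Map3k8[D270A] cells at 2 h 1 of 4 was higher than in WT, Il27ra (0.39), and 0 were lower, against 27.7% of genes called. In Elk1-/-Elk4-/- cells at 2 h 1 was higher, Il12rb1 (0.77), and 2 were lower, among them Il27ra (-0.65), against 50.8% of genes.

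Of 6 genes of the kinases and STATs that act downstream of these receptors, all 6 rose in WT cells at 2 h, where 71.5% of genes were called (4122 higher, 4377 lower), among them Jak2 (3.21), the kinase that binds IL-12 receptor beta 2. In Map3k8[D270A] cells at 2 h 1 was higher and 2 were lower than in WT, with Jak2 at -0.70, against 27.7% of genes. In Nfkb1[SS/AA] cells at 1 h 0 were higher and 3 lower, against 42.5%.

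Of 16 genes encoding regulators of IL-12 family transcription, 13 rose and 3 fell in WT cells at 2 h, against 71.5% of genes, with a median difference of 1.11. Rel (2.29) and Nfkb1 (2.18) encode NF-kB subunits, Nfkbiz (3.55) encodes a nuclear IkB protein and Irf1 (3.48) an interferon regulatory factor, while the AP-1 genes Fos (-1.55) and Jun (-1.27) were below their unstimulated value. In Map3k8[D270A] cells 1 was higher and 7 were lower than in WT at 1 h, with Fos at -1.16 and Cebpb at -1.01, and 2 were higher and 7 lower at 2 h, with Cebpb at -1.53, against 9.79% and 27.7% of genes called. Il10, which encodes an inhibitor of IL-12 family expression, stood at -2.57 there. At 1 h 2 were higher and 9 lower in Nfkb1[SS/AA] cells (Fos -1.62, Il10 -1.28), 2 higher and 8 lower with PD0325901 (Fos -1.44), 2 higher and 8 lower with RSKi47 (Il10 -1.33) and 0 higher and 5 lower in Elk1-/-Elk4-/- cells, against 42.5%, 35.7%, 52.8% and 53.4% of genes in that order. The medians of these 16 differences at 1 h were -0.14, -0.18, -0.17, -0.20 and -0.13 in the same order, beginning with Map3k8[D270A], and the medians over all genes tested were within 0.05 of 0. Whether any of these genes acted on the members was not tested.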

How the data were processed

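RNA sequencing libraries of LPS-stimulated BMDMs were analysed from 1 deposited table of 18098 genes and 119 libraries. The submitters' processing notes name STAR 2.5.1b, RSEM 1.2.29, DESeq2 1.10.1 and the mm10 genome. The paper's methods give other versions of STAR and RSEM. The deposited values are normalised and on a log scale, and were treated as log2. How the table was transformed and the counts per library are not given in the sources used. The methods state a usual yield but not the depth of each library, and no interval from depth was computed. One value above 25 (Fosb, RSKi47 at 1 h, replicate 1) was treated as missing and touches no member.

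WT, Map3k8[D270A] and Elk1-/-Elk4-/- libraries (62) were fitted together in limma 3.58.1 (R 4.3.3), keeping the 11884 genes that reached 10 on the linear scale in 4 or more libraries. Comparisons with the other groups used all 119 libraries and 11971 genes, which reached 10 in 3 or more. Group means were compared without a block, and p-values were adjusted by Benjamini-Hochberg over all genes tested; calls used 0.05. The fit was tested on simulated data. Il12a, below the filter, was fitted over all 18098 genes. Promoter and position data came from RefSeq (GRCm38.p6); symbols of all 5 members matched and 3 had promoter windows.

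Same-numbered libraries deviated together within WT across times (30 pairs, correlation 0.17 to 0.79) and within Nfkb1[SS/AA] (18 pairs, 0.15 to 0.67), but not between WT and other groups (34 pairs, -0.45 to 0.18). Alternatives were other normalisations, filters, fits and pairings, each replicate left out, and, chosen after seeing the data, each set of WT replicates alone and the sets as a term or with an interaction. Besides the members and Fosb, every gene named came from lists of receptors, kinases and STATs, regulators and cell markers, from the 3 most alike genes per member, from overlap with a member, or is deleted in a genotype. The members and lists were chosen with earlier results of these data known.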

Additional observations from a re-analysis of the deposited data

Results flagged for a closer look

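Of 100 combinations of member and group examined, 8 held a library that stood apart from its group, and chance gives about 1 in 20. Il12a had WT replicate 7 at 2 h at 1.85 (others 2.17 to 2.20) and PD0325901 replicate 2 at 1 h at 1.45 (others 1.17 to 1.27). Il12b had unstimulated WT replicate 9 at 5.04 (others 5.14 to 5.21). Il23a had PD0325901 replicate 1 at 0.5 h at 3.45 (others 3.69 to 3.81), RSKi47 replicate 4 at 1 h at 6.88 (others 6.22 to 6.31) and RSKi47 replicate 1 at 2 h at 5.96 (others 6.47 to 6.55). Il27 had WT replicate 7 at 2 h at 10.46 (others 11.15 to 11.27) and Nfkb1[SS/AA] replicate 4 at 0.5 h at 6.17 (others 5.53 to 5.74).

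Tests of the difference between responses gave further results. The LPS response of Il23a was smaller than in WT in Map3k8[D270A] cells at 1 h (-1.85) and 2 h (-1.73), in Nfkb1[SS/AA] cells at 1 h (-3.30), with PD0325901 at 1 h (-1.80) and with RSKi47 at 1 h (-1.90), and that of Il12b was smaller with RSKi47 at 1 h (-1.62). The RSKi47 difference from WT changed from 1 to 2 h by 2.16 for Il12b and 1.83 for Il23a. The Map3k8[D270A] difference from WT was not the same in both replicate sets: set 1 minus set 2 was -1.33 for Il12b, -1.30 for Il23a and -0.75 for Il27 at 1 h, and 1.24 for Il27 and 0.52 for Ebi3 at 2 h. Set 2 holds 1 WT library at 2 h, replicate 7, which itself stood apart for Il27, so the values at 2 h rest on that library, and the spread was taken from the other groups.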

How the results depend on the processing

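At 1 h the calls of lower Il23a in Map3k8[D270A], Nfkb1[SS/AA], PD0325901 and RSKi47 cells, and at 2 h in Map3k8[D270A] cells, held under every alternative run. The alternatives that use WT replicates 4 to 6 or 7 to 9 alone, or a replicate set alone, were chosen after seeing the data. Against WT replicates 4 to 6 alone, Il12b at 1 h was -0.96 in Map3k8[D270A], -1.002 in Elk1-/-Elk4-/- and -0.83 in PD0325901 cells, Il23a in Elk1-/-Elk4-/- cells was -0.95, Il27 was -0.80 in Nfkb1[SS/AA] and -0.84 in RSKi47 cells, and Ebi3 in Elk1-/-Elk4-/- cells was 0.17. Against WT replicates 7 to 9 alone, Il12b at 1 h was 1.01 in Map3k8[D270A], 0.97 in Elk1-/-Elk4-/-, 0.42 in Nfkb1[SS/AA], 1.14 in PD0325901 and -0.30 in RSKi47 cells, and Il23a in Elk1-/-Elk4-/- cells was 0.54. In set 1 alone Map3k8[D270A] differed from WT by -0.64 for Il12b and -0.62 for Il27 at 1 h and by 0.56 for Il12b, 0.35 for Il27 and 0.36 for Ebi3 at 2 h, and its change from 1 to 2 h was 0.96 for Il27. In set 2 alone the values were -0.63 for Il23a at 0.5 h (adjusted p = 0.0366), 0.69 for Il12b at 1 h and -0.89 for Il27 at 2 h, where set 2 holds 1 WT library. Against WT replicates 7 to 9 alone Il23a at 0.5 h was also called lower in Map3k8[D270A] (-0.64, adjusted p = 0.0158), Nfkb1[SS/AA] (-0.59), PD0325901 (-0.59) and RSKi47 cells (-0.62). With only the groups compared in the fit, the Il12b calls at 1 h were lost in Nfkb1[SS/AA] (-0.57, adjusted p = 0.336) and RSKi47 cells (-1.29, adjusted p = 0.0756).

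The replicate numbers do not pair libraries of WT with those of another genotype or inhibitor. With the number as a replicate block, the Ebi3 difference at 1 h was 0.047 in Elk1-/-Elk4-/- and -0.22 in Map3k8[D270A] cells, and the Il27 difference was -0.63 at 1 h and -0.75 at 2 h in Map3k8[D270A], -0.64 in Nfkb1[SS/AA] and -0.76 in RSKi47 cells. Under the block the Elk1-/-Elk4-/- calls without LPS (Ebi3, 0.12) and at 0.5 h (Ebi3, 0.13; Il23a, 0.50) were also lost. Within WT across times, where the numbers do pair libraries, the block changed no call of a member, and within Nfkb1[SS/AA] it added calls at 0.5 h against no LPS for Il12b (0.54, adjusted p = 0.0489) and Il27 (0.58, adjusted p = 0.0292). Leaving out 1 replicate number of a genotype or inhibitor at a time, with all its libraries, the range was 0.20 to 0.29 for Ebi3 in Elk1-/-Elk4-/- cells at 1 h, -0.79 to -0.35 for Il12b in Nfkb1[SS/AA] cells at 1 h, 0.25 to 0.85 for Il27 in RSKi47 cells at 2 h and -0.69 to -0.24 for Il27 in Map3k8[D270A] cells at 2 h. A sign change between values that both missed the threshold was not counted. The cause of these changes was not tested. Depth is not known from these values, and low members such as Il12a cannot be given a detection limit.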
